A study of Rattus norvegicus with 25 samples.

Results

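The 4 mature arms of the hairpins miR-296 and miR-298 were followed in rat sperm. They are the rows named rno-miR-296-5p, rno-miR-296-3p, rno-miR-298-5p and rno-miR-298-3p, 4 of the 562 mature miRNAs counted. The rows were chosen by name alone, but the pair was picked with earlier results of these data in view, so its differences between groups are described with their errors and without a p-value. Where the fit over all miRNAs called an arm, the call is listed as a description and supports nothing.

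Sperm from the cauda epididymis of 25 Sprague Dawley males, 1 small RNA library per male, was sequenced in 4 groups. F0_SAL (n = 7) had self-administered saline and F0_MOR (n = 7) morphine through an intravenous catheter, and both were sampled without abstinence. F0_ABS-SAL (n = 5) and F0_ABS-MOR (n = 6) had the same treatments followed by 90 days of abstinence. All 4 groups had therefore undergone catheter surgery and daily operant sessions, and the abstinent males were older at collection and farther from these. Each column of counts has a name made of a letter, the treatment (SAL or MOR) and REG or TO. Neither the labels nor the methods explain REG and TO. They were read as nonabstinent and abstinent from the 4 group sizes, so every timepoint difference below rests on that match. Sperm were purified by swim-up and hypotonic washes, and the labels name no allele or transgene. A preparation batch is not given in the sources used here, so timepoint and batch cannot be told apart.

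MicroRNAs are short RNAs cut from hairpin precursors. The seed, bases 2 to 8 from the 5′ end, pairs with target mRNAs, and either arm of the hairpin (5p or 3p) can be retained. In the mouse, Mir296 and Mir298 lie in Nespas, a noncoding antisense transcript of the imprinted Gnas locus that is made from the paternal allele. miR-296 is known for repressing pluripotency factors in differentiating embryonic stem cells and for a role in vessel growth, and miR-298 for targeting the mRNA of the amyloid precursor protease BACE1 in cultured cells.

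The mature sequences from RefSeq, found for 4 of 4 arms, are shown first because they define what was counted and which targets each arm could pair with. Capitals mark the seed.
rno-miR-296-5p: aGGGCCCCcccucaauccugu
rno-miR-296-3p: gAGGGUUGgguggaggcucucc
rno-miR-298-5p: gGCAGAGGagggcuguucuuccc
rno-miR-298-3p: aGGAACUAgccuucucucugcu
No 2 of the 4 arms shared a seed, and 0 of the other mature rat sequences among the 724 searched had the seed of any of them. The arms thus form no seed family with each other or with another listed rat miRNA. miR-296-5p has a run of 7 C, the longest among the 4 arms, and 66.7% G and C. The G and C content was 68.2% in miR-296-3p, 65.2% in miR-298-5p and 50.0% in miR-298-3p.

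The hairpins are shown next, with the mature arms in capitals, because the comparison of arms below depends on which strands of 1 precursor were seen.
Mir296: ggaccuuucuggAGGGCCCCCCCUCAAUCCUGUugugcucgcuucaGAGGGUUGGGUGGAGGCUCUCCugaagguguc
Mir298: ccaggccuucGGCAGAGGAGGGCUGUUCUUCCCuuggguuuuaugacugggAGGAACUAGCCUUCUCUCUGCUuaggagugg
In the RefSeq assembly GRCr8, Mir296 is at chr3:183470069-183470146 and Mir298 at chr3:183470522-183470603, both on the minus strand. They are separated by 375 bases with 0 genes listed between them. The nearest listed genes are Npepl1 before and Gnas after the pair. The authors counted reads on the earlier assembly Rnor_6.0 by miRNA name, and no coordinate from it is given here.

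Libraries held 1032386 to 3203211 miRNA reads. Levels are given as CPM, counts scaled to a common miRNA total after adjustment by TMM, edgeR's trimmed mean factors. The TMM factors were higher in abstinent libraries, with group medians of 1.14 (F0_ABS-SAL) and 1.13 (F0_ABS-MOR) against 0.928 (F0_SAL) and 0.967 (F0_MOR). Germ cell miRNAs summed to 209200 to 780200 CPM per library. miR-34c-5p, the most abundant of them, had a mean of 391900 CPM. The 4 arms were a small part of this pool. Over all libraries miR-296-5p ranked 151 of 562 by mean CPM and made up 0.00864% of the miRNA counts, miR-298-3p ranked 188 with 0.00423%, miR-298-5p 195 with 0.00366% and miR-296-3p 446. Adaptor ligation differs between sequences and was not corrected, so levels of different arms are compared only as read numbers. In bulk sperm, fewer cells of a type and less RNA per cell cannot be told apart.

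The hairpins differed in the share of reads that came from each arm. From Mir296, nearly all reads came from 1 arm. Summed over the libraries, 3859 reads were miR-296-5p and 12 were miR-296-3p, a 3p share of 0.310% (95% Clopper-Pearson interval 0.160 to 0.541%, counting error only). From Mir298 both arms were seen, with 1680 reads of the 5p and 1975 of the 3p arm, a 3p share of 54.0% (interval 52.4 to 55.7%). The sequence shown above for miR-296-3p was counted in 4 of 25 libraries, with 3 reads in F0_SAL library C, 3 in F0_MOR library N, 2 in F0_MOR library U and 4 in F0_ABS-SAL library Y. It was at 0 in all 6 F0_ABS-MOR libraries. No count of 1 occurs in the matrix, where the smallest value above 0 is 2, so a 0 can also stand for a single read. Where a 0 means no read, it allows up to 3 reads, which is between 0.959 and 3.14 CPM in these libraries. Where it stands for a single read, the bound is higher. No difference in miR-296-3p was detectable at this depth. The other 3 arms passed edgeR's filter on low counts, among 317 miRNAs tested.

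miR-296-5p was the most abundant arm and the least even between males. In F0_SAL it ranged from 34.2 to 202 CPM with a median of 155. In F0_MOR it ranged from 61.0 to 194 CPM with a median of 68.5. In F0_ABS-SAL it was 115 CPM in library E, 52.9 in K, 72.3 in L, 22.6 in R and 36.1 in Y. The saline groups overlapped, since 1 of 5 F0_ABS-SAL libraries lay below every F0_SAL library and 4 of 7 F0_SAL libraries lay above every F0_ABS-SAL library. In F0_ABS-MOR it ranged from 18.4 to 65.2 CPM with a median of 44.4, and 4 of 6 libraries lay below every F0_MOR library. Means were 123 ± 63.3 (SD, n = 7) in F0_SAL, 109 ± 56.2 (SD, n = 7) in F0_MOR, 59.7 ± 36.0 (SD, n = 5) in F0_ABS-SAL and 44.7 ± 17.4 CPM (SD, n = 6) in F0_ABS-MOR. In this order of group means, each neighbouring pair differed by no more than the SD of the higher group. Within a treatment, the difference between timepoints was larger than the SD of F0_MOR in the morphine groups and just under the SD of F0_SAL in the saline groups.

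miR-298-5p was lower and steadier. In F0_SAL it ranged from 38.3 to 54.8 CPM with a median of 43.7, and in F0_MOR from 28.2 to 68.9 CPM with a median of 50.3. In F0_ABS-SAL it was 35.4 CPM in library E, 20.6 in K, 18.1 in L, 25.1 in R and 27.5 in Y. All 5 of these lay below all 7 F0_SAL libraries. That held for 7 of the 317 miRNAs in this comparison (2.21%). In F0_ABS-MOR miR-298-5p ranged from 15.8 to 42.7 CPM with a median of 22.3, and 5 of 6 libraries lay below every F0_MOR library. The exception was library S at 42.7 CPM. Complete separation downward held for 5 miRNAs in the morphine comparison (1.58%), none of them an arm of the pair. Group means were 46.2 ± 6.61 (SD, n = 7), 47.7 ± 13.4 (SD, n = 7), 25.3 ± 6.74 (SD, n = 5) and 24.7 ± 9.64 CPM (SD, n = 6) in the order F0_SAL, F0_MOR, F0_ABS-SAL and F0_ABS-MOR. Within each timepoint the treatments differed by less than their SDs.

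miR-298-3p, the other strand of the same hairpin, had similar levels. It ranged from 32.5 to 75.3 CPM in F0_SAL (median 49.4) and from 39.2 to 72.4 CPM in F0_MOR (median 48.9). In F0_ABS-SAL it was 25.9 CPM in library E, 37.1 in K, 37.5 in L, 34.1 in R and 33.9 in Y. Only library E lay below every F0_SAL library, and 5 of 7 F0_SAL libraries lay above every F0_ABS-SAL library. In F0_ABS-MOR it ranged from 21.2 to 49.2 CPM with a median of 28.8. Here 5 of 6 libraries lay below every F0_MOR library, and library S was again the exception. Group means were 49.7 ± 14.7 (SD, n = 7), 53.9 ± 11.9 (SD, n = 7), 33.7 ± 4.66 (SD, n = 5) and 30.4 ± 9.82 CPM (SD, n = 6) in the same order, and the treatments again differed by less than their SDs within each timepoint.

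**Figure D1:**
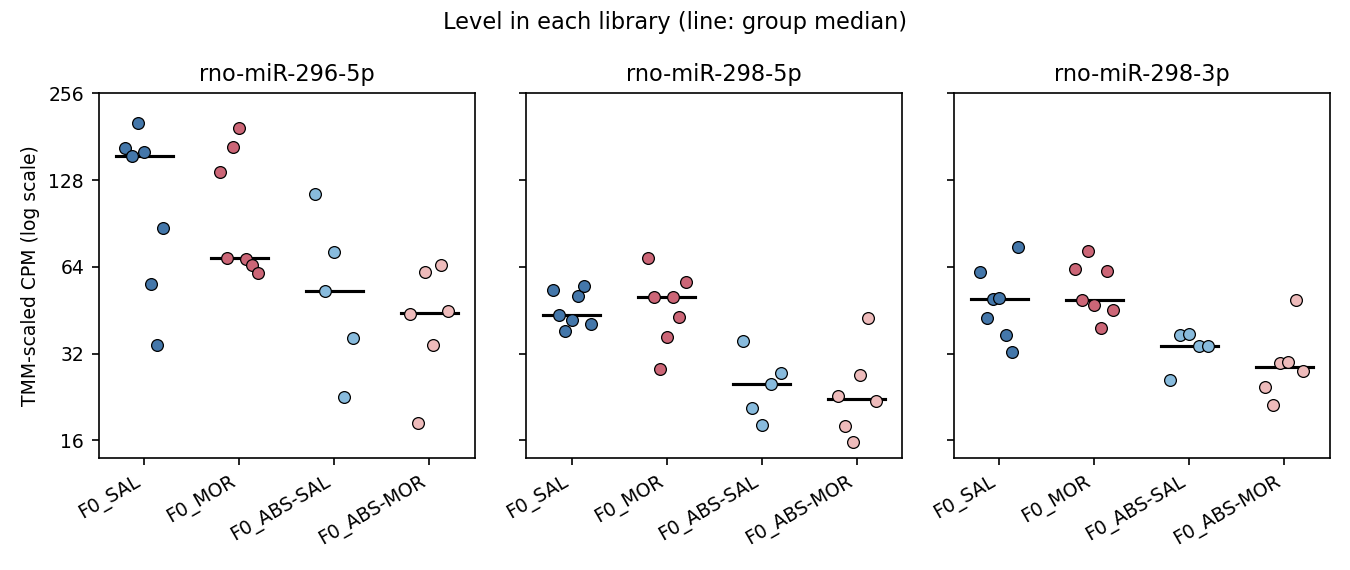
Level of the 3 measurable arms in each of the 25 libraries, as TMM-scaled CPM on a log scale, by group, with 1 point per library and a line at the group median. Median levels of all 3 arms were lower in the abstinent groups, and miR-296-5p spread widest, from 34.2 to 202 CPM in F0_SAL alone.

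The comparisons of timepoint ask whether the sperm pool had shifted by the later collection. All 3 measurable arms were lower there in both treatments. In F0_ABS-SAL against F0_SAL, the fitted log2 fold change was -1.04 (SE 0.41) for miR-296-5p, -0.87 (SE 0.25) for miR-298-5p and -0.56 (SE 0.24) for miR-298-3p. In F0_ABS-MOR against F0_MOR, it was -1.28 (SE 0.39) for miR-296-5p, -0.96 (SE 0.24) for miR-298-5p and -0.82 (SE 0.23) for miR-298-3p. The members' median was -0.87 in the saline and -0.96 in the morphine comparison, where the median of all 317 miRNAs was 0.00 in both. Ranked by absolute fold change among the 317, the arms stood 46, 68 and 146 in the saline comparison and 10, 34 and 52 in the morphine comparison, in the order miR-296-5p, miR-298-5p and miR-298-3p.

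A miRNA was called by the study's criteria, an adjusted p below 0.1 with a log2 fold change beyond ±0.58. Between F0_ABS-SAL and F0_SAL, 2 of the 3 arms were called lower, beside 34 of all 317 miRNAs (10.7%). The third, miR-298-3p, missed the fold threshold. Between F0_ABS-MOR and F0_MOR, 3 of 3 arms were called lower, beside 32 of 317 (10.1%). Without F0_ABS-SAL library R 21 miRNAs were called lower in the saline comparison, and without library E 59. Since the pair was picked with these results known, nothing is read from those counts. Scaling by total count alone moved the median log2 fold change of all miRNAs by 0.39 in the saline and by 0.18 in the morphine comparison. Under it miR-296-5p was at -0.66, miR-298-5p at -0.50 and miR-298-3p at -0.17 in the saline comparison, and 0 of 3 were called there while 3 of 3 still were in the morphine comparison. Without F0_ABS-SAL library R, or without library Y, miR-296-5p was not called in the saline comparison. miR-298-3p passed in 7 of 12 saline fits that left out 1 library, namely F, H, O, P or V of F0_SAL and K or L of F0_ABS-SAL.

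**Figure D2:**
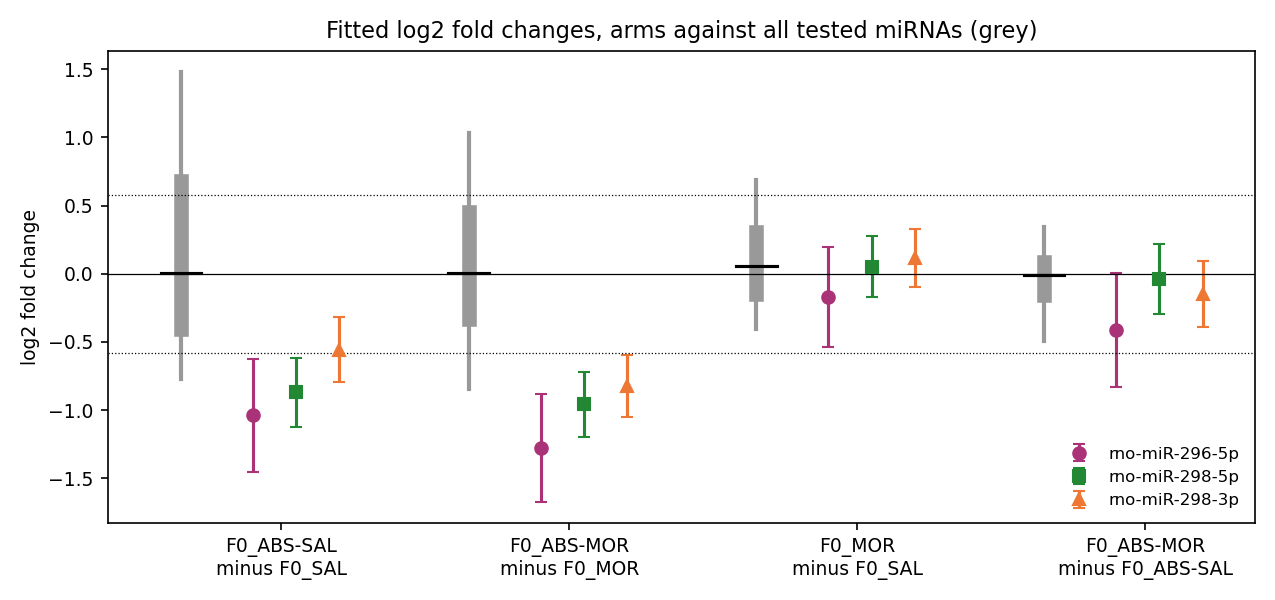
Fitted log2 fold change (point) ± SE of each arm in 4 comparisons, beside all 317 tested miRNAs (grey thick bar, middle 50%; thin bar, 5th to 95th percentile; black line, median), with dotted lines at ±0.58. All 3 arms lay below 0 in both timepoint comparisons (-0.56 to -1.28) and nearer 0 between treatments (-0.41 to 0.12).

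The comparisons of treatment ask whether morphine altered these miRNAs. Between F0_MOR and F0_SAL, the log2 fold change was -0.17 (SE 0.37) for miR-296-5p, 0.05 (SE 0.23) for miR-298-5p and 0.12 (SE 0.21) for miR-298-3p. Between F0_ABS-MOR and F0_ABS-SAL, it was -0.41 (SE 0.42), -0.04 (SE 0.26) and -0.15 (SE 0.24) in the same order. Every one of these 6 values was within its SE. The groups overlapped for each arm. The 3-arm median was 0.05 and -0.15, against 0.06 and -0.01 for all miRNAs tested. The interaction, the fold change of treatment without abstinence minus that after abstinence, was 0.24 (SE 0.56), 0.09 (SE 0.34) and 0.27 (SE 0.32). These errors leave room for moderate differences in either direction, least so for the miR-298 arms. edgeR called 0 of 317 miRNAs (0%) in either treatment comparison and in the interaction, with 23, 4 and 10 at an unadjusted p under 0.05. limma-voom called 1 between F0_MOR and F0_SAL, not an arm of the pair, as did edgeR without F0_SAL library H.

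The arms also differed in how far males of 1 group varied. The pooled within-group SD of log2 CPM was 0.81 for miR-296-5p, 0.38 for miR-298-5p and 0.35 for miR-298-3p, where the median of the 317 miRNAs was 0.49. That placed miR-296-5p at 41, miR-298-5p at 236 and miR-298-3p at 257 from the most variable. Of the miRNAs with a mean log2 level above that of miR-296-5p, 0 had a larger SD. Counting error does not reach this size, since it gives an SD of only 0.10 to 0.14 at the group means of miR-296-5p. It is a larger part of the spread of miR-298-5p, with a counting SD of 0.17 to 0.20 against a total of 0.20 in F0_SAL and 0.36 to 0.48 in the other groups. In raw reads, F0_SAL libraries V and H held 60 and 237 of miR-296-5p, but 96 and 45 of miR-298-5p.

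Within a library, miR-298-5p stood above miR-298-3p in 8 of 25 libraries. The mean log2 difference of 5p minus 3p was -0.07 ± 0.53 (SD, n = 7) in F0_SAL, -0.19 ± 0.60 (SD, n = 7) in F0_MOR, -0.42 ± 0.56 (SD, n = 5) in F0_ABS-SAL and -0.31 ± 0.29 (SD, n = 6) in F0_ABS-MOR. These means lay within 1 SD of each other. The SD is the spread between males, and the error of a difference between means was not computed. Whether the ratio shifted between groups was therefore not tested. miR-296-5p stood above miR-298-3p in 23 of 25 libraries. Its mean log2 difference was 1.11 ± 0.81 (SD, n = 7), 0.87 ± 0.64 (SD, n = 7), 0.61 ± 1.00 (SD, n = 5) and 0.48 ± 0.45 (SD, n = 6) in the same order. A single library weighed on the F0_ABS-SAL value, which was 0.24 without library E.

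**Figure D3:**
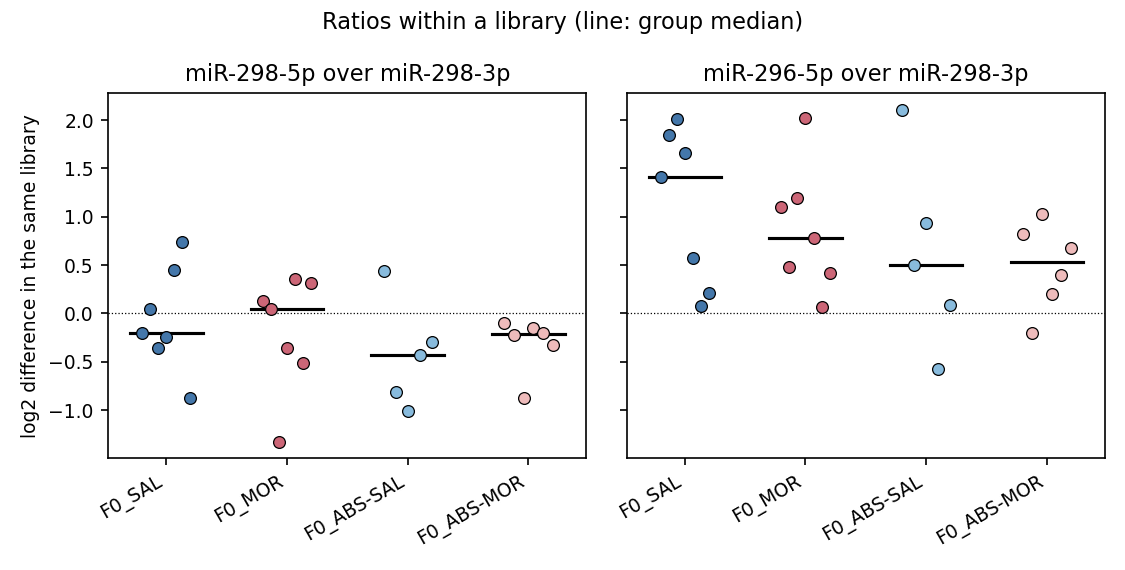
Log2 difference between arms in the same library, by group, for miR-298-5p over miR-298-3p (left) and miR-296-5p over miR-298-3p (right), with 1 point per library and a line at the group median. The miR-298 arms scattered around 0 (above it in 8 of 25 libraries), and miR-296-5p exceeded miR-298-3p in 23 of 25.

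After each group's mean was removed, the arms of Mir298 did not track each other over the 25 libraries (Pearson's r = 0.00, Spearman's rho = -0.14). miR-296-5p and miR-298-3p had r = 0.41 (rho = 0.41), and miR-296-5p and miR-298-5p had r = -0.11 (rho = -0.17). These are descriptions over libraries that share their depth and scaling between the arms. With counts of 37 to 148 reads per library for the miR-298 arms, counting error alone lowers any correlation between them.

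The 5 miRNAs whose within-group pattern over the 25 libraries was most like that of miR-296-5p were miR-375-3p (r = 0.78), miR-25-3p (0.76), miR-203a-3p (0.74), miR-423-3p (0.69) and miR-15b-5p (0.69). miR-375-3p, known from pancreatic islets and other secretory cells, had a mean of 4838 CPM. For miR-298-5p they were miR-7b (0.76), miR-142-5p (0.74), miR-7a-5p (0.73), miR-132-5p (0.71) and miR-28-5p (0.70). miR-7b and miR-7a-5p share the miR-7 family's origin and nearly all of their sequence, so their reads may be hard to separate. For miR-298-3p they were miR-369-3p (0.67), miR-106b-3p (0.64), miR-340-3p (0.60), miR-15b-3p (0.60) and miR-130b-5p (0.56). The lists of the 3 arms had no miRNA in common. Each list was picked as the highest r over all tested miRNAs, so these values cannot be set against the r between arms. In F0_SAL, miR-296-5p and miR-375-3p both lay above their group means in libraries C, F, H and O and below them in P, V and W. Whether the column letter has a part in their likeness was not tested.

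**Figure D4:**
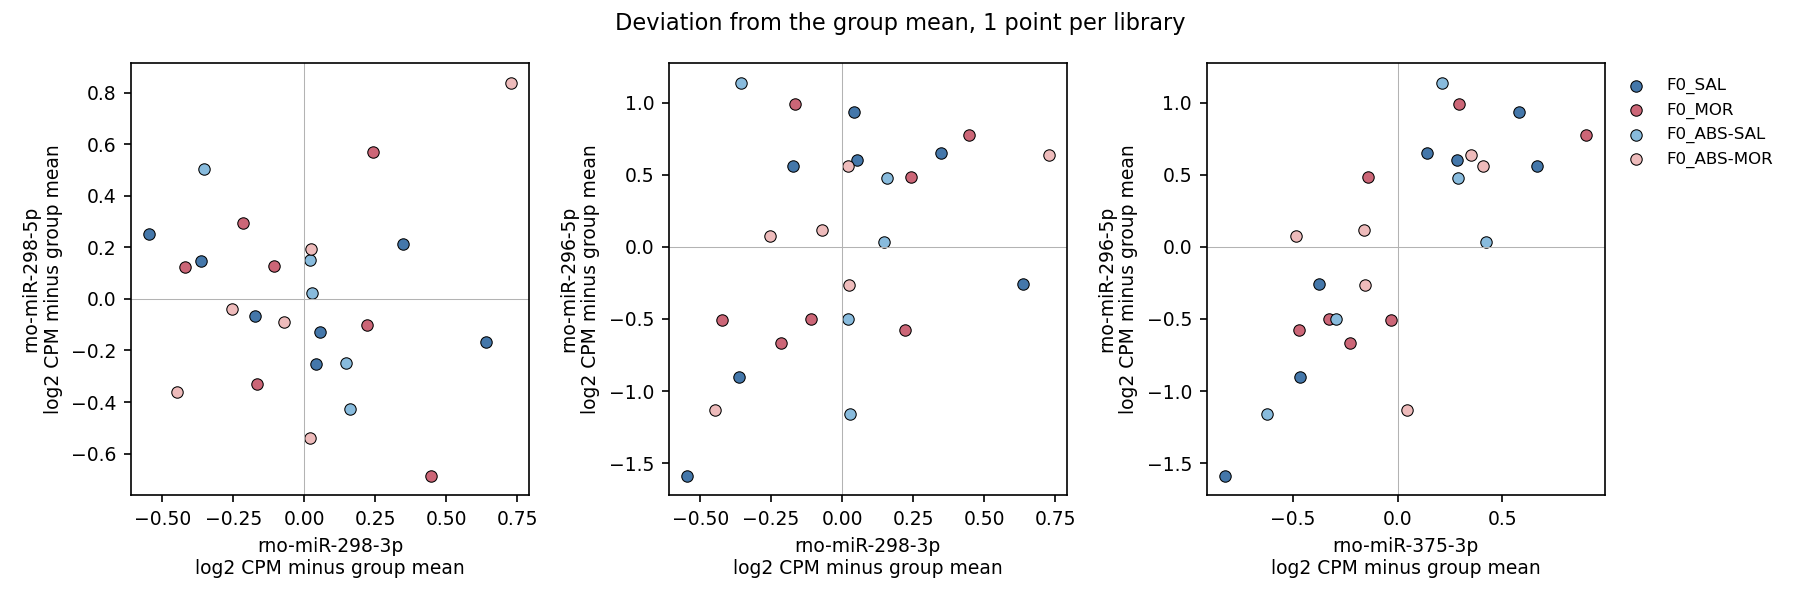
Log2 CPM minus the group mean, 1 point per library and coloured by group, for miR-298-5p against miR-298-3p (left), miR-296-5p against miR-298-3p (middle) and miR-296-5p against miR-375-3p (right). The arms of 1 hairpin showed no common trend (r = 0.00), while miR-296-5p was higher in libraries where miR-375-3p was higher (r = 0.78). miR-375-3p was picked as the most correlated of all miRNAs tested, so these r values are not like for like.

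miRNAs of other imprinted loci, chiefly the maternally expressed cluster between Dlk1 and Dio3, were set beside the pair. Of 75 rows, 24 were tested. Between F0_ABS-SAL and F0_SAL, 3 were called higher and 0 lower, with a median log2 fold change of 0.49, where 22.4% of all miRNAs were called higher. Between F0_ABS-MOR and F0_MOR, 2 were called higher and 0 lower, with a median of 0.50 and 11.0% of all miRNAs called higher. Neither count of higher calls exceeded the share over all miRNAs. The lowest p in both was that of miR-411-5p, at 0.75 (SE 0.26, edgeR adjusted p = 0.0319) and 0.88 (SE 0.25, edgeR adjusted p = 0.0179). miR-127-3p was the most abundant, with a mean of 235 CPM. The medians of this list and of the pair had opposite signs in both comparisons, a difference that was not tested.

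Lists of miRNAs named for cell types were counted in the same comparisons. In these, 10.7% (saline) and 10.1% (morphine) of all miRNAs were called lower and 22.4% and 11.0% higher. The name of a list does not show that such cells were in the sample. Of 22 germ cell miRNAs tested, 6 were called lower in the saline and 2 in the morphine comparison, with 0 higher, and their summed level was 362100 to 780200 CPM in nonabstinent and 209200 to 460000 CPM in abstinent libraries. The morphine count was near the share over all miRNAs. The calls and sums of every list rest on TMM scaling. With total count alone, 1 of 317 miRNAs was called lower in the saline and 14 in the morphine comparison. So most of the lower calls of these lists in the saline comparison depend on the scaling. Of 8 neuroendocrine miRNAs, 4 and 3 were lower and 0 higher. Among them miR-375-3p, which varied with miR-296-5p, was at -0.77 (edgeR adjusted p = 0.0293) and -0.83 (edgeR adjusted p = 0.0197). The most abundant of this list, miR-7a-5p, had a mean of 150000 CPM, so the list was not read as a sign of neuroendocrine cells. Most of the list's lower calls in the saline comparison were of the miR-7 family. miR-9a-5p (0.44) and miR-9a-3p (0.15) were above 0 there and not called. Of 3 erythroid miRNAs, 0 and 3 were lower. Epithelial miRNAs went the other way, with 6 and 4 of 10 called higher, miR-200a-5p by 1.56 (edgeR adjusted p = 0.000353) and 1.73 (edgeR adjusted p = 9.69e-05) on the log2 scale. Muscle miRNAs (4 and 2 of 6) and endothelial miRNAs (2 and 2 of 2) were also called higher, and of 9 leukocyte miRNAs 1 and 1 were higher and 0 and 1 lower, each near or below the share over all miRNAs. The summed muscle level was 13150 to 17760 CPM in nonabstinent and 15780 to 81890 CPM in abstinent libraries. Its group medians were 15390 (F0_SAL), 14540 (F0_MOR), 19360 (F0_ABS-SAL) and 23050 CPM (F0_ABS-MOR), so the highest value, in F0_ABS-SAL, stood far above its group's median. Most of the muscle sum was miR-143-3p, with a mean of 20690 CPM. The summed epithelial level was 7485 to 11990 CPM in nonabstinent and 9469 to 20040 CPM in abstinent libraries. The part of these differences in the lower level of miR-296 and miR-298 was not tested. In each list 0 miRNAs were called between treatments. The leukocyte miRNA of lowest p between F0_MOR and F0_SAL was miR-150-5p, with a log2 fold change of 0.92 (SE 0.26, edgeR adjusted p = 0.3105). The study reported this miRNA as differentially expressed in that comparison, and its qPCR appeared to give a difference of similar size. With all libraries, neither edgeR nor DESeq2 as run here called any miRNA in it, while limma-voom called 1 higher.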

How the data were processed

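The authors made sperm small RNA libraries with the NEBNext kit, trimmed and aligned forward reads with sRNAbench to Rnor_6.0, annotated them to miRBase and then to Ensembl ncRNAs with a minimum of 2 reads, and deposited raw read counts for 25 libraries, 562 mature miRNAs and 3804 ncRNA transcripts. The ncRNA counts served only for 1 alternative scaling and for the share of miRNA reads, whose group medians were 31.2 to 35.9%. How multimapping reads were shared between miRNAs is not given in the sources used here.

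miRNA counts were tested in R 4.3.3 with edgeR's quasi-likelihood test (edgeR 4.0.16) after TMM scaling and edgeR's low-count filter, with the 4 groups in 1 model and Benjamini-Hochberg adjustment over 317 miRNAs. The study used DESeq2. SE is the log2 fold change divided by the square root of F, an approximation. Log2 CPM used a prior count of 2. The test was tried on simulated counts. The members and the lists of germ cell, epithelial, leukocyte, erythroid, endothelial, muscle, neuroendocrine and other imprinted miRNAs were chosen with earlier results of these data known. Named miRNAs are the members, the 5 most correlated with each within groups, and in each list described the most abundant and that of lowest p, a rule the text uses in part. The miR-9a arms of the neuroendocrine list are named in addition. All 300 pairs of libraries differed beyond sampling noise. Alternatives were DESeq2 1.42.0, DESeq2 size factors within edgeR, weighted limma-voom (limma 3.58.1, sample quality weights), scaling by total count alone, no filter, a filter of at least 10 counts throughout, a model of the compared groups alone, log2 total count as a covariate, an adjusted p under 0.05, a prior count of 0.5, each library left out, and, chosen after seeing the data, letter position as a covariate and TMM on both matrices joined.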

Additional observations from a re-analysis of the deposited data

Results flagged for a closer look

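In 24 groups of 5 to 7 libraries, taken from the levels of the 3 measurable arms and the ratios between them, the highest and lowest library were compared with the rest, and chance gives about 1 in 20. In 2 a library stood apart. Log2 CPM of miR-298-3p in F0_ABS-SAL was lowest in library E, at 4.75 against 5.13 for the next. The log2 difference of miR-298-5p minus miR-298-3p in F0_ABS-MOR was lowest in library J, at -0.88 against -0.33 for the next.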

How the results depend on the processing

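Of 600 values of 32 results under the alternatives, 595 kept their direction where called and stayed within the limits set, 5 moved and 0 reversed. For a fold change the limit was the arm's pooled within-group SD, as wide as 0.81 for miR-296-5p. A lost call did not count as a move. In the saline timepoint comparison under total count alone, miR-296-5p at -0.66 was no longer called and still counted as kept. The tally therefore does not show that calls were stable. With total count alone, miR-298-3p was at -0.17 (SE 0.23) between F0_ABS-SAL and F0_SAL, and the calls were 110 higher and 1 lower in the saline comparison (71 and 34 with TMM) and 57 higher and 14 lower in the morphine comparison (35 and 32 with TMM). With both matrices joined the morphine split was 56 and 17. The morphine timepoint comparison held 43 calls at an adjusted p under 0.05 (67 at 0.1). At that threshold 1 of 3 arms was called in the saline and 3 of 3 in the morphine timepoint comparison. Between F0_MOR and F0_SAL, limma-voom gave 1 call, and leaving out 1 library gave 0 to 1, the 1 without F0_SAL library H. Leaving out 1 library gave 65 (without F0_ABS-SAL library R) to 126 (without library E) calls in the saline timepoint comparison, where 105 were called with all libraries, and the number lower ranged from 21 (without R) to 59 (without E).

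Leaving out 1 library, the saline timepoint fold change was -1.49 to -0.85 for miR-296-5p, -1.10 to -0.80 for miR-298-5p and -0.67 to -0.47 for miR-298-3p. In the morphine comparison it was -1.42 to -1.09, -1.19 to -0.86 and -0.999 to -0.741. Between treatments the sign depended on the setting or the library left out for some arms. For F0_MOR minus F0_SAL the other settings gave -0.31 to 0.01 for miR-296-5p, -0.07 to 0.25 for miR-298-5p and -0.04 to 0.33 for miR-298-3p. For F0_ABS-MOR minus F0_ABS-SAL, leaving out 1 library gave -0.29 to 0.13 for miR-298-5p, while miR-296-5p (-0.66 to -0.02, the latter without F0_ABS-SAL library E) and miR-298-3p (-0.36 to -0.08) stayed below 0 there and under the other settings. No paired analysis was possible because the columns carry letters and no replicate number of the labels, and no matched males are described. Each library came from a different male, so a shared replicate number would not by itself make libraries of different groups a pair. Depth limited miR-296-3p, and p-values for other miRNAs set a group difference against the spread between these libraries.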

Other observations

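Among nonabstinent libraries, the level of miR-296-5p was higher in those with early column letters. The 7 libraries lettered A to M held 68.5 to 202 CPM with a median of 165, and the 7 lettered N to Y held 34.2 to 160 CPM with a median of 64.8. In abstinent libraries the medians were 57.3 (n = 6) and 36.1 CPM (n = 5). The miR-298 arms had nonabstinent medians of 43.7 and 50.3 CPM (5p) and 49.4 and 45.4 CPM (3p) in the same sets. What the letters stand for is not given in the sources used here, the split was chosen after the values were seen, and both sets hold saline and morphine libraries. With letter position as a covariate, the timepoint log2 fold change of miR-296-5p was -1.01 in the saline and -1.06 in the morphine comparison.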
